A study of Mus musculus with 5 samples.

Results

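Yap1, Wwtr1 and Tead1 were followed with 7 genes that are widely used as readouts of YAP and TAZ, namely Thbs1, Ctgf, Cyr61, Ankrd1, Amotl2, Lats2 and Ajuba. The genes were chosen by name, and all 10 were present among the 31053 genes of the single-cell RNA-sequencing tables, each as 1 feature. The data came from lungs of adult C57BL/6 mice that received a single intratracheal dose of either lipopolysaccharide (LPS), a bacterial product that injures the alveolus, or phosphate-buffered saline (PBS). In β1 AT2-KO mice the β1 integrin gene Itgb1 was deleted from alveolar type 2 (AT2) cells, the surfactant-making cells of the alveolus, with a Cre recombinase that doxycycline turned on through an SP-C rtTA driver, and doxycycline was stopped before injury. The controls were β1 fl/fl littermates that carried the floxed gene without Cre and also received doxycycline. There were 5 libraries, 1 for each condition: β1 fl/fl and β1 AT2-KO lungs at day 7 after LPS, β1 AT2-KO lungs at day 7 after PBS, and β1 fl/fl and β1 AT2-KO lungs at day 21 after LPS. Viable cells negative for CD45 and Ter119 were sorted, which removes leukocytes and red cells, and the day 21 samples were also enriched for cells positive for the epithelial protein CD326. Each library held 3 hashtag oligonucleotides in use, taken here as 3 mice, and since a condition was 1 library, an effect of the library and an effect of the condition cannot be told apart.

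YAP, the product of Yap1, and TAZ, the product of Wwtr1, are transcriptional co-activators that enter the nucleus when the Hippo kinase cascade is inactive, and there they bind TEAD factors such as Tead1. Cell attachment through integrins, cell spreading, matrix stiffness and the actin cytoskeleton are known inputs, and in the alveolar epithelium both proteins take part in repair and in differentiation toward type 1 (AT1) cells. Ctgf (Ccn2) and Cyr61 (Ccn1) encode secreted matricellular proteins, Thbs1 encodes thrombospondin 1, Ankrd1 encodes a nuclear ankyrin repeat protein, and Amotl2, Lats2 and Ajuba encode proteins that act on the pathway itself: an angiomotin that binds YAP, a Hippo kinase and a LIM protein that binds LATS kinases. Cyr61 also belongs to the genes induced within minutes of serum or stress, a property it shares with Fos, Egr1 and Nr4a1.

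The 250 bases before the start site of the RefSeq promoters (GRCm38.p6) were searched for the TEAD core motif GGAATG on both strands, where the other strand reads CATTCC. A promoter entry was present for 7 of the 10 members (all but Thbs1, Ctgf and Tead1), and 6 of these 7 held the core motif, against 12.6% of all 32851 mouse promoters of that length. The AP-1 motif TGANTCA was in none of the members' entries and in 6.75% of all promoters. The windows of both co-activators, of Cyr61 as the target called in most comparisons and of Amotl2 as the pathway inhibitor detected in every mouse are shown 5′ to 3′ on the gene's strand, with the core motif in capitals. They lie at chr9:8004597-8004846 (minus strand) for Yap1, chr3:57575911-57576160 (minus strand) for Wwtr1, chr3:145649986-145650235 (minus strand) for Cyr61 and chr9:102717554-102717803 (plus strand) for Amotl2.
Yap1: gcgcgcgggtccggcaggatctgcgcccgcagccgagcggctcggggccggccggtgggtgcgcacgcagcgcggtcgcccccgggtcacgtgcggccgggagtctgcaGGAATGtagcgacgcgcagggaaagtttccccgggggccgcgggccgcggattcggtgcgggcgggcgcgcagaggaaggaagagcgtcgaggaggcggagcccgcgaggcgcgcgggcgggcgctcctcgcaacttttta
Wwtr1: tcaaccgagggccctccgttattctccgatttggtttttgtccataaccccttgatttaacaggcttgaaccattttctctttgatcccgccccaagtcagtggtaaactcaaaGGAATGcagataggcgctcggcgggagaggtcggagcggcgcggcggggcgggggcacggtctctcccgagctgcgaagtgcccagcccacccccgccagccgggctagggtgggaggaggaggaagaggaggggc
Cyr61: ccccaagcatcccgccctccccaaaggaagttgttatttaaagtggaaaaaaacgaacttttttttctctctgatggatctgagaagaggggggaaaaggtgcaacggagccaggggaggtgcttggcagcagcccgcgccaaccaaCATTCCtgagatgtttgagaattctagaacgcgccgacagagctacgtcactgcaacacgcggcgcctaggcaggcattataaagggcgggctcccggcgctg
Amotl2: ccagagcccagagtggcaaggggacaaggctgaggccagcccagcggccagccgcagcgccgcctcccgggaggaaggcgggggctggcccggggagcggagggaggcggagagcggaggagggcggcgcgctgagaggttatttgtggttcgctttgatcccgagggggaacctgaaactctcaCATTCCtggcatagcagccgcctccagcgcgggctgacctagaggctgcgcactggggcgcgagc
The motif began 141 bases before the start site of Yap1, 136 before that of Wwtr1, 103 before that of Cyr61 and 65 before that of Amotl2. Ankrd1 had matches 210 and 123 bases before its start, Ajuba had matches 186 and 164 bases before its start, and Lats2 had none in either of its entries. A match of these letters is a description of the sequence only. The gene bodies in GRCm38 are at chr9:7931999-8004596 for Yap1, chr3:57455649-57575910 for Wwtr1, chr3:145646976-145649981 for Cyr61, chr2:118111876-118127133 for Thbs1 and chr10:24595442-24598683 for Ctgf.

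Between 2224 and 8671 cells per library had at least 700 detected genes and 0.1% to 15% mitochondrial UMIs (unique molecular identifiers), with 8360954 to 29128331 UMIs in all. AT2 cells were those with Sftpc at 5% or more of UMIs and at least 1 Epcam UMI, which left 119, 355, 26, 176 and 1240 cells in the order of libraries given above. Endothelial cells had at least 2 UMIs of Cdh5 and Pecam1 and numbered 879 to 7976, mesenchymal cells had at least 2 UMIs of Col1a2 and numbered 103 to 553, and each gate required 0 UMIs of the defining genes of the others. AT2 marker genes summed to 280130 to 328234 counts per 1000000 UMIs (CPM) in the AT2 cells of every mouse, and all 11 were higher there than in endothelial cells. The 11 include Sftpc, which the gate requires at 5% or more of UMIs, so the sum and the order partly follow from the gate. Of 6 immune markers none reached the level needed for testing in any of the gates. Itgb1 in AT2 cells was at 258, 235 and 305 CPM in β1 fl/fl mice and 214, 150.0 and 193 in β1 AT2-KO mice at day 7, and at 356, 319 and 372 against 141, 178 and 146 at day 21, so the groups did not overlap at either time. The female transcript Xist was at 98.8 to 157 CPM in AT2 cells of the day 7 β1 fl/fl mice and at 0 to 1.19 in those of the β1 AT2-KO mice, so genotype and sex cannot be told apart at day 7, whereas day 21 had Xist-high mice in both groups.

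The members differed widely between the cell types. Thbs1, an extracellular protein that binds matrix and activates latent TGF-β, was highest in mesenchymal cells, at 428 to 721 CPM over the 5 libraries with a median of 659, followed by AT2 cells at 76.2 to 301 with a median of 101, and endothelial cells at 6.61 to 20.8. For Cyr61 the medians were 1018, 482 and 182 CPM, and the AT2 range of 158 to 674 overlapped the endothelial range of 114 to 249.8. In the day 21 β1 fl/fl library Cyr61 was lower in AT2 than in endothelial cells. Ctgf, in contrast, was lowest in AT2 cells, at 0 to 21.5 CPM, against 57.9 to 88.8 in endothelial and 409 to 1503 in mesenchymal cells. Wwtr1 was highest in endothelial cells, at 137 to 255 CPM, against 107 to 162 in mesenchymal and 23.4 to 75.9 in AT2 cells. The mesenchymal and endothelial ranges of Wwtr1 overlapped. Differences between cell types were tested with edgeR's quasi-likelihood test on the summed counts of each mouse, with the mouse as a block. Because the 1 PBS mouse with enough AT2 cells had no UMI of Wwtr1 or Ctgf, the values given here are averages over the 4 LPS-treated groups. In AT2 cells against endothelial cells, Thbs1 was higher by 3.75 ± 0.24 (log2 fold change ± SE), Tead1 by 1.95 ± 0.17, Cyr61 by 1.62 ± 0.12 and Yap1 by 0.61 ± 0.14, and Wwtr1 (-1.19 ± 0.10), Ctgf (-1.86 ± 0.19) and Lats2 (-1.90 ± 0.22) were lower. The size of the Thbs1 difference is uncertain, because endothelial Thbs1 was near the level of free RNA: averaged over all 5 groups it was 3.51, and 5.92 with free RNA subtracted. These 4 members higher and 3 lower in AT2 cells stood beside 29.3% and 36% of 11893 genes. Against mesenchymal cells 7 members were lower in AT2 cells, where 25.7% of genes were, among them Ctgf (-5.20) and Tead1 (-0.47 ± 0.19), and 2 were higher, where 25.8% were, namely Yap1 (1.10 ± 0.24) and Amotl2 (0.44 ± 0.17). In mesenchymal against endothelial cells 6 members were higher, where 22.5% of genes were, among them Thbs1 (5.15), Ctgf (3.34), Cyr61 (2.58) and Tead1 (2.41 ± 0.23), and 3 were lower, where 27.2% were, namely Wwtr1 (-0.89), Lats2 (-0.70) and Amotl2 (-0.60). Averaged over all 5 groups fewer members were called: 3 higher (18.6% of genes) and 3 lower (33.1%) in AT2 than in endothelial cells, 0 higher (15.6%) and 4 lower (11.2%) in AT2 than in mesenchymal cells, and 4 higher (9.78%) and 2 lower (23.8%) in mesenchymal than in endothelial cells. Lats2, Ajuba and Ankrd1 were below the low-count filter in AT2 cells alone and entered these tests through the other cell types. Their calls as lower in AT2 cells therefore follow in part from the filter. Ankrd1 was almost absent, with 3 UMIs in all AT2 cells together, 23 in endothelial cells and 31 in mesenchymal cells. It counts among the 7 members lower in AT2 than in mesenchymal cells and the 6 higher in mesenchymal than in endothelial cells, and is not compared further.

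**Figure D1:**
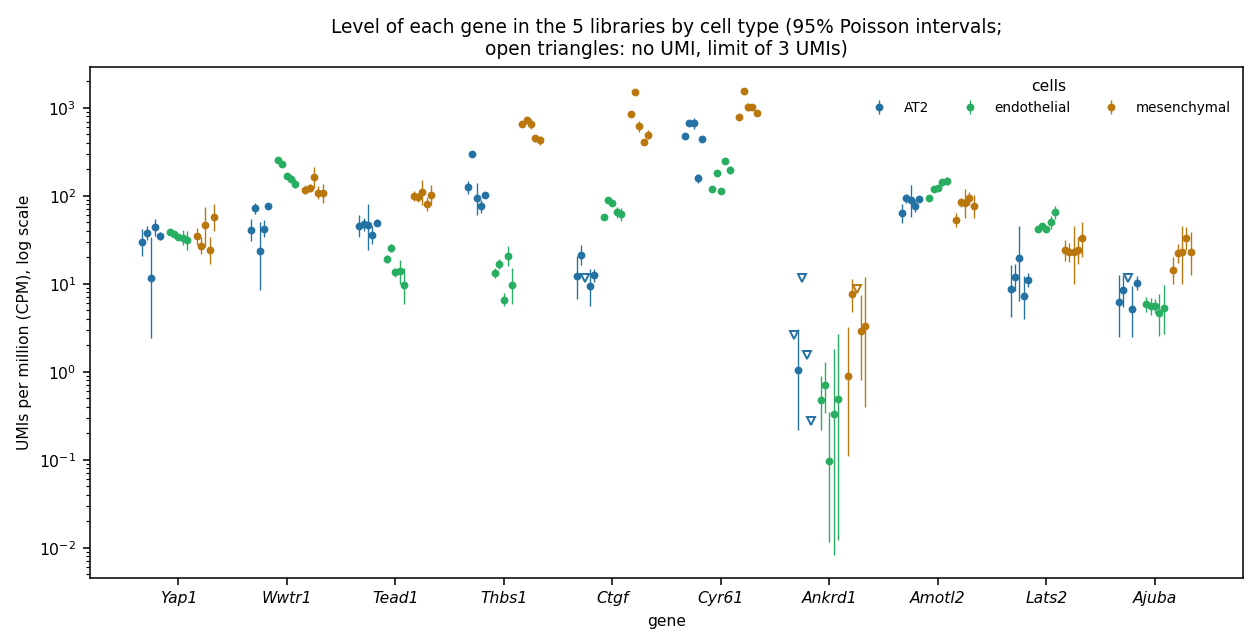
Level of each of the 10 genes in AT2, endothelial and mesenchymal cells of the 5 libraries, in CPM on a log axis, with 1 point for each library and bars for 95% Poisson intervals, which cover counting error only. Open triangles mark the limit that 0 UMIs allow (3 UMIs), and Thbs1 falls from mesenchymal to AT2 to endothelial cells in every library, as does Cyr61 in all but the day 21 β1 fl/fl library (158 CPM in AT2 and 249.8 in endothelial cells).

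Across the 15 sums of cells (3 cell types in 5 libraries), the genes whose log2 levels were most like those of a member were found among 6227 genes. They were Nr4a1 (Pearson r = 0.941), Cd302 (0.930) and Cebpb (0.929) for Cyr61, Ddr1 (0.983), Cd302 (0.979) and Cd44 (0.974) for Thbs1, and Eln (0.987), Fkbp9 (0.984) and Fstl1 (0.982) for Ctgf. Nr4a1 and Cebpb are transcription factors of early responses, Ddr1 and Cd44 are receptors for collagen and hyaluronan, and Eln encodes elastin. Among the members, Thbs1 resembled Tead1 (r = 0.966) and Cyr61 (0.929), and Ctgf resembled Ajuba (0.820). The 15 sums share libraries and cell types, so these values are descriptions.

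Other genes of the pathway also separated the cell types. The values here are averages over all 5 groups, which include the PBS group with 1 mouse in AT2 and in mesenchymal cells. Of 23 tested Hippo kinases, scaffolds and regulators, 7 were higher and 12 lower in AT2 than in endothelial cells, where 18.6% and 33.1% of 11893 genes were. Among them were Wwc1, the upstream scaffold KIBRA (6.41 ± 0.44), Tead3 (3.24 ± 0.59) and Tead2 (-4.36 ± 0.45). Of 19 further YAP targets, 9 were higher and 4 lower in mesenchymal than in endothelial cells, where 9.78% and 23.8% of genes were. They were led by the receptor tyrosine kinase Axl (7.47 ± 0.54) and by tissue factor F3 (6.57 ± 0.62). The low-count filter ran over the cell types together, so a gene could enter through the cell type where it is high. Fewer of the further targets passed the filter in AT2 or in endothelial cells alone, and fewer of the Hippo genes in AT2 cells alone. These counts therefore follow in part from the filter.

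In AT2 cells at day 7 after LPS, the highest member difference was in Thbs1. Its level was 146, 74.1 and 57.1 CPM in the 3 β1 fl/fl mice and 166, 375 and 151 in the 3 β1 AT2-KO mice. Every β1 AT2-KO mouse was above every β1 fl/fl mouse, by little for the pair at 151 and 146. Thbs1 was 1.12 ± 0.32 higher in β1 AT2-KO cells (95% interval 0.47 to 1.77) and did not pass the threshold of 0.05 (adjusted p = 0.0705). Without β1 AT2-KO mouse 2 the difference was 0.45 (adjusted p = 0.604), without β1 fl/fl mouse 1 it was 1.87 (0.0533), and without β1 AT2-KO mouse 3 it was 1.36 (0.0145). Of the 7 members that passed the low-count filter none was called, where 1.61% of 7846 tested genes were called, and the members' median was 0.26 against 0.01 for all tested genes.

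Neither co-activator passed the test in AT2 cells at day 7. Wwtr1 was at 41.3, 61.8 and 42.8 CPM in β1 fl/fl mice and 74.1, 59.5 and 85.1 in β1 AT2-KO mice, a difference of 0.55 ± 0.27 (adjusted p = 0.407) with overlapping groups. Yap1 was at 33.5, 37.1 and 23.8 CPM against 38.6, 39.3 and 42.5, without overlap, and the interval of its difference (0.26 ± 0.29) reached from -0.34 to 0.85. Tead1 differed by -0.11 ± 0.33 and Amotl2 by 0.48 ± 0.27. Cyr61 was at 478, 419.9 and 743 CPM in β1 fl/fl mice and 638, 645 and 460.1 in β1 AT2-KO mice. These ranges overlapped almost whole, and the difference of 0.02 had an interval from -0.41 to 0.45. Ctgf was sparse in AT2 cells, at 0 to 23.6 CPM, and differed by -0.07 ± 0.56.

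**Figure D2:**
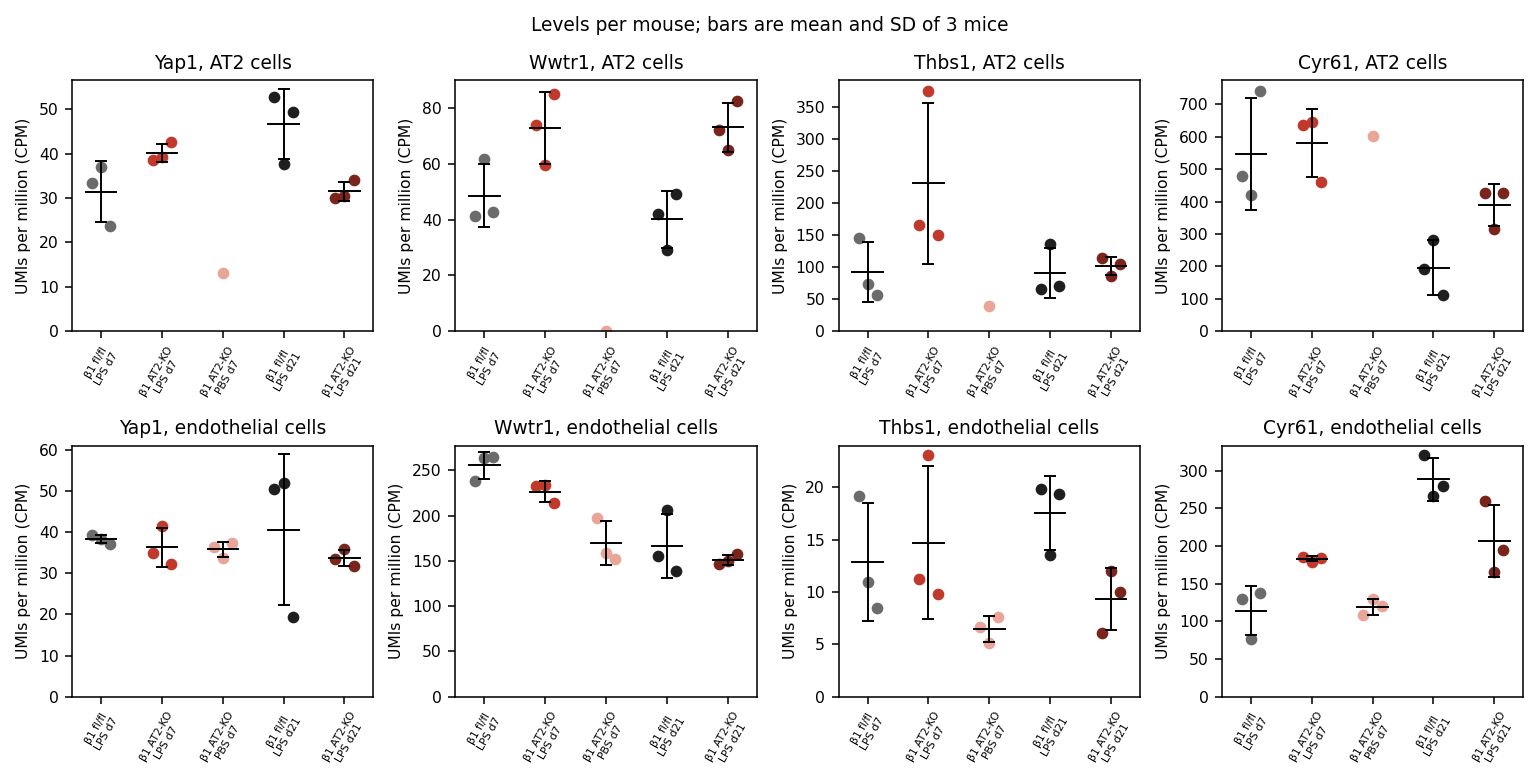
Levels of Yap1, Wwtr1, Thbs1 and Cyr61 in AT2 cells (upper panels) and endothelial cells (lower panels), in CPM, with 1 point for each mouse with at least 5 cells of the type and bars for the mean and SD of 3 mice. In AT2 cells the day 21 β1 AT2-KO mice lie at 316 to 426 for Cyr61, above the β1 fl/fl mice at 112 to 281.

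At day 21 after LPS, Cyr61 was higher in β1 AT2-KO AT2 cells. It was at 193, 281 and 112 CPM in β1 fl/fl mice and 426, 316 and 425 in β1 AT2-KO mice, and the groups did not overlap. The difference of 0.98 ± 0.22 (95% interval 0.54 to 1.42) passed the test (adjusted p = 0.00949). Cyr61 was the 1 member called of 7 tested, where 1.22% of genes were called higher, and the members' median was 0.27 against 0.02 for all tested genes. The call did not hold without β1 fl/fl mouse 3 (0.59, adjusted p = 0.197), without β1 AT2-KO mouse 3 (0.87, 0.0819) or without β1 fl/fl mouse 1 (0.97, 0.0516). The Xist-high mice alone kept the order: β1 AT2-KO mouse 1 was at 426 CPM and β1 fl/fl mice 2 and 3 were at 281 and 112.

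The same comparison showed Yap1 and Wwtr1 on opposite sides of zero. Wwtr1 was at 42.2, 29.0 and 49.3 CPM in β1 fl/fl mice and 72.1, 64.9 and 82.4 in β1 AT2-KO mice, whereas Yap1 was at 52.8, 37.7 and 49.3 CPM in β1 fl/fl mice and 30.1, 30.5 and 34.0 in β1 AT2-KO mice. Neither gene's groups overlapped. Wwtr1 differed by 0.71 ± 0.21 and Yap1 by -0.67 ± 0.20, and both missed the threshold with an adjusted p of 0.0635. Ctgf (0.58 ± 0.46) and Tead1 (0.27 ± 0.25) had wide intervals. Thbs1 was at 65.9, 136 and 69.8 CPM against 114, 86.6 and 105 and differed by 0.16 (interval -0.45 to 0.76), and Amotl2 differed by 0.04 ± 0.19. Lats2 and Ajuba, at 0 to 16.3 CPM in the AT2 cells of every mouse, were below the filter.

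The change of the genotype difference from day 7 to day 21 was also tested in AT2 cells. Cyr61 moved by 0.96 ± 0.30 (adjusted p = 0.233), Thbs1 by -0.96 ± 0.44 (0.461) and Yap1 by -0.92 ± 0.35 (0.354), and no member was called, where 0.51% of genes were. The genotype difference of Cyr61 is therefore not shown to be larger at day 21 than at day 7.

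**Figure D3:**
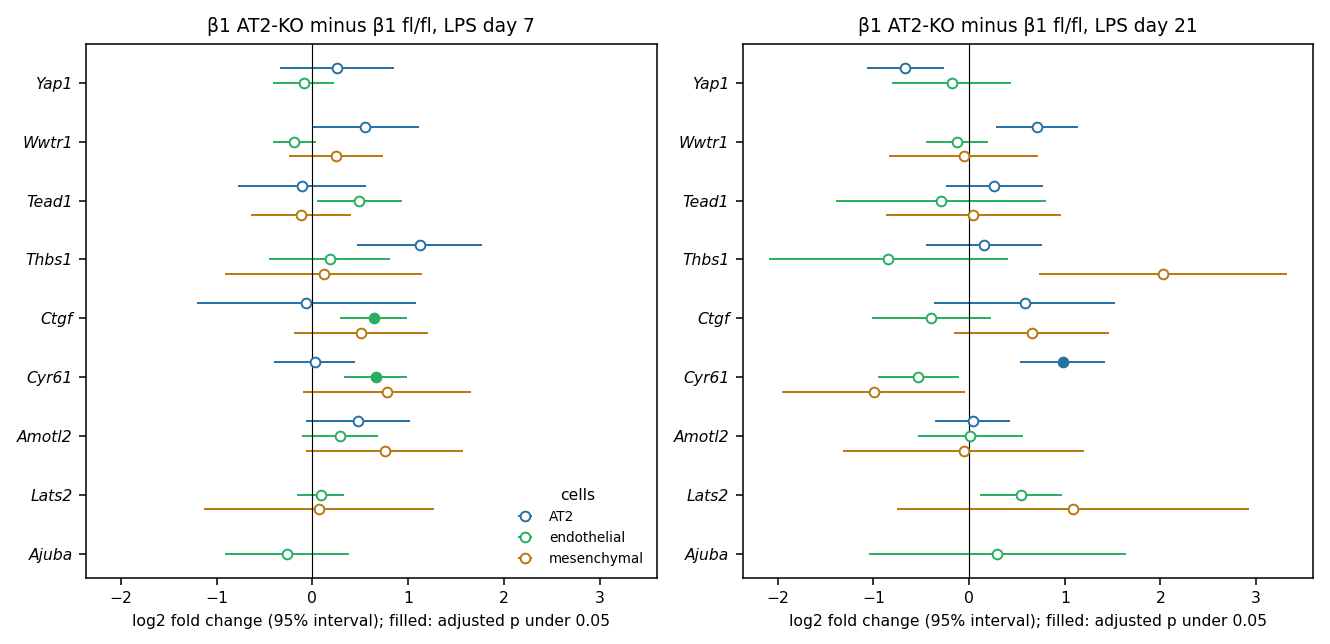
Log2 fold change of β1 AT2-KO against β1 fl/fl mice at day 7 and day 21 after LPS for the members that passed the low-count filter in each cell type, with 95% intervals and with filled points for an adjusted p under 0.05. The filled points are Ctgf and Cyr61 in endothelial cells at day 7 and Cyr61 in AT2 cells at day 21.

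The share of AT2 cells with at least 1 UMI gave the same order after each cell was thinned to 2000 UMIs. For Cyr61 at day 21 the share was 33.9% ± 1.54 (SD, n = 3) in β1 AT2-KO and 20.9% ± 4.30 in β1 fl/fl mice (exact permutation test, two-sided p = 0.1, the smallest that 3 against 3 mice allow). Over whole libraries at day 21 the thinned shares were 37.0% and 19.4% and the unthinned ones 58.6% and 38.1%. For Thbs1 at day 7 the thinned shares of the mice were 28.6% ± 12.0 in β1 AT2-KO and 11.8% ± 10.6 in β1 fl/fl mice (exact p = 0.3). In endothelial cells, where Thbs1 was near the level of free RNA, the thinned shares were 2.17% and 1.75% in the same libraries, at median depths of 2490.0 and 2428.5 UMIs before thinning, against 7615 and 8947 in AT2 cells. Over whole libraries the day 7 Thbs1 shares in AT2 cells were 35.4% and 17.9% after thinning and 61.7% and 34.5% before. Wwtr1 was found in 13.9% ± 4.06 of β1 AT2-KO and 6.28% ± 0.988 of β1 fl/fl AT2 cells at day 7 (exact p = 0.1). Over all members, cell types and comparisons with 3 mice in each group, the thinned shares of the groups were apart in 16 of 80 cases. With thinning to 1000 UMIs it was 15 cases and without thinning 22. The 80 cases include epithelial cells outside the AT2 gate. How often the groups are apart over all genes was not counted, so the 16 cases are not a result about the members.

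The rest of the pathway gave no call in AT2 cells. Of 20 tested Hippo kinases and regulators none passed the test at day 7 (median 0.04) or at day 21 (median 0.16, with 17 of 20 higher in β1 AT2-KO cells), and of 12 further YAP targets none passed at either time. Markers of the transitional alveolar state that AT2 cells enter on the way to AT1 cells moved more: 3 of 9 rose at day 7 (median 0.62), with summed levels of 1303 to 1990 CPM in β1 fl/fl and 1947 to 3131 in β1 AT2-KO mice. At day 21, 2 of the 9 rose and 1 fell, and the sums were 1052 to 1630 against 1897 to 2160 CPM. Of AT1 markers 4 of 8 rose at day 7. Within each library, AT2 cells with a Thbs1 UMI held more UMIs of the transitional markers than cells without one, with means of 7.59 and 4.64 in the day 7 β1 AT2-KO library and 7.05 and 2.13 in the day 21 β1 fl/fl library at 2000 UMIs per cell, where the PBS library had 3 such cells. Cyr61-positive AT2 cells held more UMIs of the immediate-early genes in all 5 libraries, for example 49.6 against 39.3 in day 21 β1 AT2-KO cells. The converse pairs behaved alike in all 5 libraries: in day 7 β1 AT2-KO cells, Thbs1-positive cells held 44.1 immediate-early UMIs against 30.6, and Cyr61-positive cells held 7.16 transitional-marker UMIs against 4.51. AT2 markers were lower in positive than in negative cells in all 5 libraries for both genes. In day 7 β1 AT2-KO cells their means were 509 against 562 UMIs for Cyr61 and 499 against 560 for Thbs1. Each cell was held at 2000 UMIs, and the part of this drop in the other lists was not tested. The lists of further YAP targets and of AT1 markers were mixed. Cyr61-positive cells held fewer UMIs of further YAP targets in day 7 β1 fl/fl cells (0.975 against 1.25), as many after PBS (1.08) and more in the other libraries. Thbs1-positive cells held fewer AT1-marker UMIs in the LPS libraries of day 7 (3.04 against 3.5 in β1 fl/fl, 4.49 against 5.26 in β1 AT2-KO) and more in the others.

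The immediate-early genes, which also rise when tissue is dissociated, are given beside Cyr61, which is known as one of them. The 15 genes summed to 15882, 14747 and 15721 CPM in AT2 cells of day 21 β1 fl/fl mice and to 20825, 19777 and 21258 in β1 AT2-KO mice, so they separated the groups as Cyr61 did. Of the 15, 1 was called, Atf3, a stress-induced transcription factor (1.29 ± 0.17, adjusted p = 1.17e-05). At day 7, 3 of the 15 were lower in β1 AT2-KO AT2 cells, and the sums overlapped, at 22604, 16061 and 20270 CPM in β1 fl/fl and 15945, 18905 and 11555 in β1 AT2-KO mice. The part of this list in the Cyr61 difference was not tested.

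**Figure D4:**
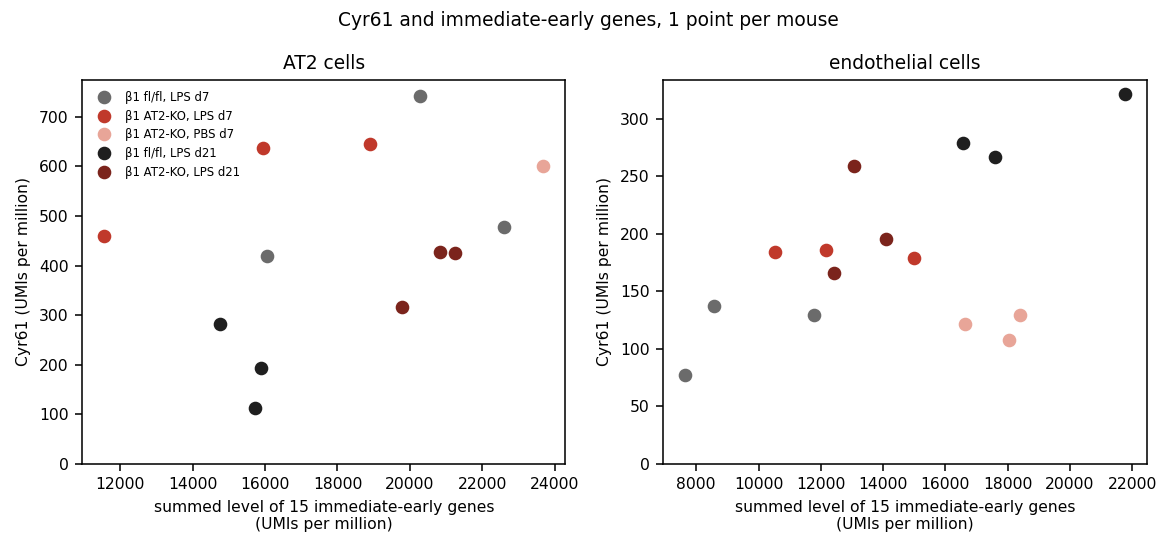
Cyr61 level of each mouse against the summed level of 15 immediate-early genes, both in CPM, in AT2 and endothelial cells, with 1 point for each mouse and colours for the groups. In AT2 cells the day 21 β1 AT2-KO mice are higher on both axes than the day 21 β1 fl/fl mice, and in endothelial cells the PBS mice are high for the list at 108 to 129 for Cyr61.

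The PBS library held 26 AT2 cells, and 1 mouse had at least 5, so LPS was not tested in AT2 cells with single-tagged mice. With each cell given to its highest hashtag no member was called, where 0.713% of 7291 genes were: Thbs1 differed by 1.40 ± 0.39 (edgeR, adjusted p = 0.0820) and Wwtr1 by 1.54 ± 0.54 (0.217). In mesenchymal cells the same assignment also gave no call, where 0.292% of 7888 genes were called, with Ctgf at 1.38 ± 0.40 (adjusted p = 0.166) and Cyr61 at 1.37 ± 0.56 (0.335). Over the whole library, Thbs1 was at 93.5 CPM after PBS (95% Poisson interval 59.9 to 139) and 301 after LPS (281 to 321) in β1 AT2-KO AT2 cells. Cyr61 was at 670.0 (573 to 778) after PBS and 674 (645 to 705) after LPS. Wwtr1 was at 23.4 (8.57 to 50.9) against 72.0 (62.4 to 82.5), and Ctgf had 0 UMIs after PBS, which allows up to 11.7 CPM, against 21.5. These intervals cover counting error and not the spread between mice.

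In endothelial cells, in which Itgb1 was not targeted, 2 of 9 tested members were higher at day 7 in the β1 AT2-KO lungs, where 1.68% of 11757 genes were called higher. Cyr61 was at 129, 76.6 and 137 CPM in β1 fl/fl mice and 186, 179 and 184 in β1 AT2-KO mice, and Ctgf was at 66.9, 47.9 and 55.1 against 68.0, 95.4 and 105. Neither gene's groups overlapped. Cyr61 rose by 0.66 ± 0.16 (adjusted p = 0.0279) and Ctgf by 0.64 ± 0.17 (adjusted p = 0.0468). Tead1 (0.49 ± 0.21), Amotl2 (0.29) and Lats2 (0.09 ± 0.12) did not pass, nor did Wwtr1 (-0.19 ± 0.11) and Yap1 (-0.09, interval -0.41 to 0.23). The members' median was 0.18 against 0.00 for all tested genes. Single mice decided both calls. Cyr61 was at 0.44 (adjusted p = 0.117) without β1 fl/fl mouse 2, 0.64 (0.0653) without β1 AT2-KO mouse 1 and 0.68 (0.0623) without β1 AT2-KO mouse 2. Ctgf was at 0.53 (0.250) and 0.61 (0.133) without β1 fl/fl mice 2 and 3, and at 0.60 (0.131) and 0.52 (0.150) without β1 AT2-KO mice 2 and 3.

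Endothelial cells were a mixture whose makeup differed. Cells with Car4, a marker of the aerocyte capillary type, made up 45.7% of the day 7 β1 fl/fl and 30.6% of the day 7 β1 AT2-KO endothelial cells, and cells with Gpihbp1 and little Car4, the general capillary type, made up 44.9% and 56.9%. Within Gpihbp1 cells Cyr61 was at 162, 95.9 and 165 CPM in β1 fl/fl mice and 246, 225 and 231 in β1 AT2-KO mice (0.72 ± 0.17, adjusted p = 0.0353), and Ctgf differed by 0.73 ± 0.18 (adjusted p = 0.0416). Within Car4 cells Cyr61 was at 93.6, 65.6 and 94.0 against 90.9, 101 and 70.9 (0.04 ± 0.19, adjusted p = 0.973), and Ctgf differed by 0.33 ± 0.26 (adjusted p = 0.736). Whether the subsets differ in this was not tested. Of the 15 immediate-early genes 2 were called higher over all endothelial cells, Nr4a1 (1.50 ± 0.21) and Fosb (0.78). The list summed to 11785, 7650 and 8584 CPM in β1 fl/fl and 12162, 15005 and 10525 in β1 AT2-KO mice, so the groups overlapped. The part of this list was not tested. Markers of other cells were also higher: AT2 markers summed to 1863 to 4490 CPM in β1 fl/fl and 3469 to 5496 in β1 AT2-KO endothelial cells (1 of 11 called), and mesenchymal markers to 307 to 367 and 405 to 462.

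**Figure D5:**
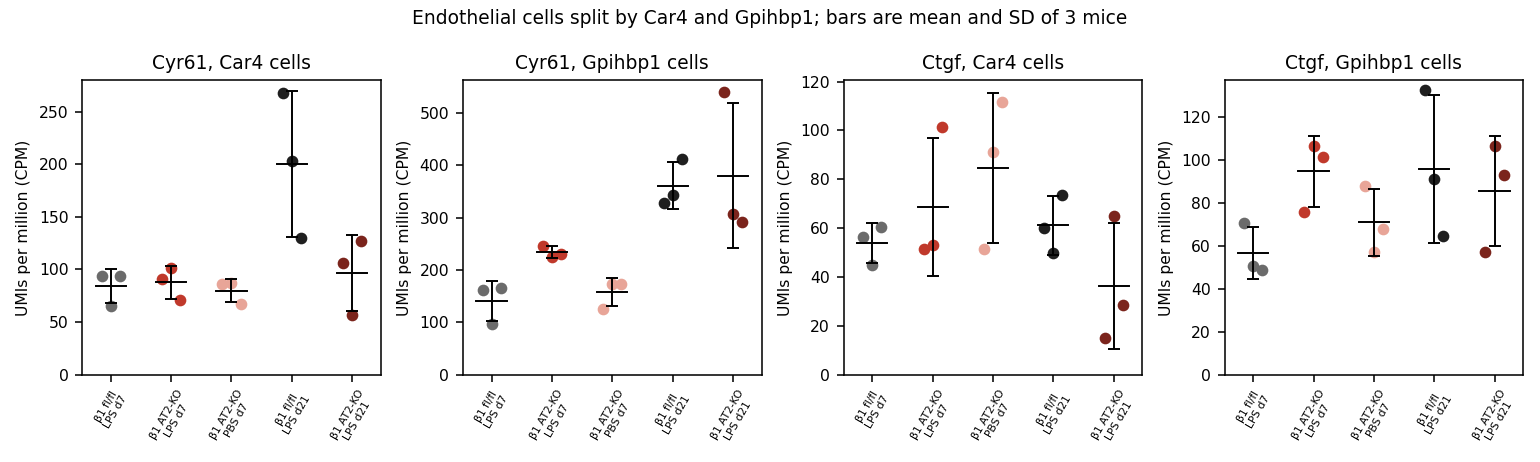
Cyr61 and Ctgf in endothelial cells with Car4 and in those with Gpihbp1 and little Car4, in CPM, with 1 point for each mouse and bars for the mean and SD of 3 mice. At day 7 the β1 AT2-KO mice lie at 225 to 246 for Cyr61 in Gpihbp1 cells, above the β1 fl/fl mice at 95.9 to 165, and the groups overlap in Car4 cells.

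The share of endothelial UMIs that came from free RNA was estimated from AT2 genes and was 15.4% and 9.58% in the day 7 LPS libraries and 13.5% in the PBS library. At those shares, free RNA alone would give 118%, 117% and 73.4% of the endothelial Thbs1 level in the 3 day 7 libraries, so endothelial Thbs1 was at or near the background. The same expectation was 31.4%, 26.9% and 18.9% of the level for Cyr61 and 43.8%, 32.4% and 17.8% for Ctgf. In AT2 cells it was 0.214% to 2.82% for Cyr61 and 0.343% to 3.21% for Thbs1. With the expected counts subtracted, the endothelial day 7 differences were 0.69 ± 0.23 for Cyr61 (adjusted p = 0.177) and 0.85 ± 0.24 for Ctgf (adjusted p = 0.0956), of similar size and no longer called.

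LPS against PBS could be tested in endothelial cells of β1 AT2-KO lungs at day 7, where 14.3% of 11757 genes were called higher and 4 of 9 members were among them. Wwtr1 was at 197, 159 and 153 CPM after PBS and 232, 234 and 214 after LPS (0.32 ± 0.11, adjusted p = 0.0353). Tead1 was at 17.5, 13.2 and 9.77 against 19.6, 24.9 and 32.4 (0.81 ± 0.22, adjusted p = 0.00901). Cyr61 was at 108, 129 and 121 against 186, 179 and 184 (0.52 ± 0.16, adjusted p = 0.0191). In none of these 3 genes did the groups overlap, and the share of all genes without overlap was not counted. Thbs1 rose by 1.09 ± 0.32 (adjusted p = 0.0175), but its level was that expected from free RNA and its difference was -0.61 ± 1.17 with free RNA subtracted. With that subtraction no member was called: Wwtr1 was at 0.36 (adjusted p = 0.0527), Tead1 at 0.77 ± 0.27 (0.0595) and Cyr61 at 0.31 ± 0.22 (0.395). Ctgf (0.03, interval -0.31 to 0.36) and Yap1 (-0.07 ± 0.15) did not pass. Within Car4 cells Wwtr1 rose by 0.50 ± 0.13 (adjusted p = 0.00951), and within Gpihbp1 cells it differed by 0.17 ± 0.13 (0.398). PBS mouse 1 had Xist at 203 CPM in these cells, PBS mice 2 and 3 had 10.3 and 7.03 and the LPS mice 0, and the part of sex was not tested. Each call also rested on single mice. Without PBS mouse 3, Wwtr1 was at 0.23 (adjusted p = 0.186), Cyr61 at 0.51 (0.0531) and Tead1 at 0.61 (0.0573). Without PBS mouse 2 Wwtr1 was at 0.30 (0.107) and Thbs1 at 0.98 (0.0633), and without PBS mouse 1 Cyr61 was at 0.45 (0.0596). Without LPS mouse 2 Wwtr1 was at 0.31 (0.0867) and Thbs1 at 0.61 (0.178), without LPS mouse 1 Wwtr1 was at 0.30 (0.0971), and without LPS mouse 3 Tead1 was at 0.61 (0.0603).

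The immediate-early list went the other way from Cyr61 in this comparison, with 6 of 15 genes lower and 1 higher after LPS, and that 1 was Nr4a1 (1.37). In the rest of the pathway 6 of 24 Hippo genes rose, where 14.3% of all genes did, and 1 fell, among them Wwc1 (2.05 ± 0.50), Amot (0.88 ± 0.28) and the FERM protein Frmd6 (-0.77 ± 0.13). Of 15 further targets 6 rose, led by the mitotic gene Birc5 (5.68 ± 0.74), followed by the matrix protein Ccdc80 (2.16 ± 0.59) and Myof (1.41 ± 0.26). AT2 markers rose too, 10 of 11, from sums of 501 to 964 CPM after PBS to 3469 to 5496 after LPS, as did 8 of 9 mesenchymal and 5 of 5 proliferation markers, and Wwc1 was 6.41 higher in AT2 and Ccdc80 6.46 ± 0.60 higher in mesenchymal than in endothelial cells. Their part in these values was not tested.

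At day 21 no member was called in endothelial cells, where 0.527% of genes were. Cyr61 was at 321, 266 and 279 CPM in β1 fl/fl mice and 259, 166 and 195 in β1 AT2-KO mice, so the order was opposite to day 7, without overlap (-0.53 ± 0.20, adjusted p = 0.284). Lats2, at 41.5, 42.5 and 43.9 CPM against 51.8, 65.8 and 65.6, differed by 0.54 ± 0.21 (adjusted p = 0.285). The change of the genotype difference from day 7 to day 21 was called for Cyr61 (-1.19 ± 0.25, adjusted p = 0.0324), where 0.638% of genes were called lower, and not for Ctgf (-1.03 ± 0.34, adjusted p = 0.179). The call of the Cyr61 change was lost without β1 AT2-KO mouse 2 of day 7 (adjusted p = 0.0559), any β1 fl/fl mouse of day 21 (0.0837, 0.0585 and 0.0507 for mice 1, 2 and 3) and β1 AT2-KO mice 2 (0.143) and 3 (0.0858) of day 21. It was also lost with free RNA subtracted (-1.37, adjusted p = 0.0899), in Car4 cells (-1.11, 0.327) and in Gpihbp1 cells (-0.76, 0.469). The immediate-early list moved with it, with 10 of 15 genes lower, and its part was not tested. AT2 markers in day 21 endothelial cells summed to 3143 to 6727 CPM in β1 fl/fl and 18738 to 20776 in β1 AT2-KO mice.

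In mesenchymal cells no member of 7 tested was called at either time, where 0.133% of 6018 genes were called at day 7 and 0.0499% at day 21. Thbs1 at day 21 was at 209, 24.2 and 141 CPM in β1 fl/fl mice and 346, 318 and 1298 in β1 AT2-KO mice, a difference of 2.03 ± 0.62 (interval 0.73 to 3.33, adjusted p = 0.284) without overlap. These mice rested on 19.0% and 28.5% of the mesenchymal cells, those with a single mouse tag. The difference was 0.36 (adjusted p = 0.983) with each cell given to its highest hashtag and 1.20 (0.502) without β1 AT2-KO mouse 3, and over whole libraries Thbs1 was at 449 and 428 CPM. Cyr61 at day 7 was at 1388, 594 and 916 CPM against 999, 2198 and 1669 (0.78 ± 0.42), and at day 21 at 1210.5, 1284 and 1457 against 726, 246 and 1383 (95% interval -1.95 to -0.04, adjusted p = 0.437). Both times the groups overlapped. Ctgf at day 7 was at 849.6, 813 and 989.8 CPM against 781, 798 and 2074 (0.51 ± 0.33). Ctgf was at 351 to 3245 CPM in smooth muscle cells and 508 to 696 in Pdgfra fibroblasts over the 5 libraries, and smooth muscle cells made up 14.2% of the day 21 β1 fl/fl and 5.45% of the day 21 β1 AT2-KO mesenchymal cells.

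The genotype difference of Cyr61 at day 21 differed between cell types. It was 1.57 ± 0.34 larger in AT2 than in endothelial cells (95% interval 0.90 to 2.25, adjusted p = 0.007), where 0.328% of 11893 genes were called in that direction, and 2.29 ± 0.36 larger in AT2 than in mesenchymal cells (adjusted p = 0.00014), where 0.219% were. The first was lost without β1 fl/fl mouse 1 (1.51, adjusted p = 0.0513) and without β1 fl/fl mouse 3 (1.24, 0.175). The second was lost with each cell given to its highest hashtag (2.06, adjusted p = 0.0835). Its mesenchymal side rested on 8 to 26 tagged cells of each mouse. Over whole libraries mesenchymal Cyr61 at day 21 was at 1025 CPM in β1 fl/fl and 877 in β1 AT2-KO lungs. The immediate-early genes moved in the same direction, 15 of 15 higher in AT2 than in endothelial cells with 4 called, and their part was not tested. At day 7 no member was called between AT2 and endothelial cells, where 0.193% of genes were, and Thbs1 (1.01 ± 0.55) and Wwtr1 (0.80 ± 0.30) had the highest differences.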

How the data were processed

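UMI counts per gene, hashtag and cell barcode were deposited by the authors for 5 libraries made with a 5′ 10x Genomics kit; the processing notes name Cell Ranger 3.1, Seurat 4.1.0 and mm10. The deposited counts were not normalised. Each barcode had at least 500 UMIs, and 24 to 164 barcodes were shared between pairs of libraries. Cells were gated by the marker counts given above. A cell was given to a mouse where exactly 1 hashtag was at least 4 times its background in that library (the median over cells led by another hashtag), and cells with several hashtags or none were left out of the values by mouse. No doublet caller was run, and leaving out the 5% of cells with the most UMIs was an alternative. Counts were summed per mouse and gate where at least 5 cells were present, and tested with edgeR 4.0.16 (quasi-likelihood, TMM scaling, filterByExpr, Benjamini-Hochberg adjustment over all genes tested, threshold 0.05) in R 4.3.3, with all groups of a gate in 1 fit; contrasts between gates used 1 fit over gates with the mouse as a block. Free RNA was estimated in endothelial cells from 5 AT2 genes and in the other gates from 5 endothelial genes, relative to their share of the library. DESeq2 1.42.0 was an alternative. Permutation tests ran over every split of the mice, and Poisson intervals used scipy 1.17.1. Promoter windows came from RefSeq.

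The genes named were the 10 members, the genes most like Thbs1, Ctgf and Cyr61, and up to 3 called genes of each pathway list for a comparison. Members and lists were chosen with earlier results of these data known. The changes from day 7 to day 21 in endothelial and mesenchymal cells, the contrasts of mesenchymal with other cells, the split by Car4 and Gpihbp1, the average over the LPS-treated groups and the plot of Cyr61 against immediate-early genes were added after seeing the data. Mice were told apart by hashtag alone, so p-values measure the spread between hashtags of 1 library. Where groups are said not to overlap, the share of all genes without overlap was not counted, so such statements describe single genes only.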

Additional observations from a re-analysis of the deposited data

Results flagged for a closer look

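Of the members, Cyr61 alone gave differences between groups in its genotype effect that passed a test of the difference itself. Its effect in endothelial cells changed between the times, by -1.19 from day 7 to day 21 after LPS (edgeR, adjusted p = 0.0324). That call was lost in 9 of 21 settings. These were free RNA subtracted (-1.37, adjusted p = 0.0899), Car4 cells (-1.11, 0.327), Gpihbp1 cells (-0.76, 0.469) and fits that left out a single mouse. At day 21 its effect was 1.57 larger in AT2 than in endothelial cells (adjusted p = 0.007) and 2.29 larger in AT2 than in mesenchymal cells (adjusted p = 0.00014). The first call was lost in 3 of 13 settings, with the DESeq2 Wald test and without single β1 fl/fl mice. The second was lost in 1 of 12, with each cell given to its highest hashtag (2.06, adjusted p = 0.0835). Its mesenchymal side rested on 8 to 26 tagged cells of each mouse, and mesenchymal Cyr61 over whole libraries was at 1025 CPM in β1 fl/fl and 877 in β1 AT2-KO lungs. All 3 β1 AT2-KO mice were above all 3 β1 fl/fl mice in AT2 cells at day 21, and below them in endothelial cells. No group had more than 3 mice, so single mice far from their group were not searched for.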

How the results depend on the processing

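The member differences followed were the 51 with an edgeR p under 0.05 before adjustment in the main setting and without a very large SE. The settings reuse mostly the same counts, so this choice favours a kept direction, and members outside it were not followed. Of the 51, 49 kept their direction under every setting, and 2 of 868 alternative values had the other sign. Thbs1 in AT2 minus mesenchymal cells at day 21 was 0.10 with cells given to their highest hashtag, and endothelial Thbs1 after LPS was -0.61 with free RNA subtracted. Counts of members called moved as follows, and the cause was not tested. AT2 day 7 went from 0 to 1 (Thbs1) with no filter on low counts, without the highest 5% of UMI counts and with cells given to their highest hashtag. AT2 day 21 went from 1 to 2 with DESeq2 size factors and stricter gates (adding Yap1) and with no filter and the highest hashtag (adding Wwtr1), and the day 21 minus day 7 difference in AT2 cells from 0 to 2 with no filter. Endothelial day 7 went from 2 to 1 with the highest hashtag and the DESeq2 Wald test, and to 0 with free RNA subtracted, in Car4 cells and in a fit of only the groups compared. Endothelial LPS went from 4 to 2 without the highest 5%, 1 in Car4 cells, and 0 with free RNA subtracted and in Gpihbp1 cells. Mesenchymal day 21 went from 0 to 1 (Thbs1) with no filter and the Wald test, AT2 minus endothelial at day 21 from 1 to 0 with the Wald test, and AT2 minus mesenchymal levels from 4 to 8 with the highest hashtag and 9 over the LPS-treated groups. Leaving out single mice gave 0 to 1 members in AT2 cells at each day, 0 to 2 in endothelial cells at day 7, 1 to 3 for endothelial LPS, and 0 to 1 for AT2 minus endothelial at day 21.

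Counts over all genes moved by over 1.5 times too. They went from 126 to between 43 (without 1 mouse) and 210 (no filter) in AT2 cells at day 7, from 223 to between 78 (without 1 mouse) and 391 (highest hashtag) at day 21, and from 40 to between 14 and 96 for the change between them. In endothelial cells they went from 289 to between 131 (Car4 cells) and 594 (no filter) at day 7, from 3079 to as few as 1476 (Car4 cells) for LPS, from 62 to between 10 (without 1 mouse) and 194 (no filter) at day 21, and from 117 to between 20 (Gpihbp1 cells) and 259 for the change. In mesenchymal cells they went from 8 to between 3 and 116 at day 7, from 3 to between 0 and 74 at day 21, and from 0 to as many as 59 for the change. For AT2 minus endothelial they went from 23 to between 8 and 74 at day 7 and from 67 to between 25 and 108 at day 21, for AT2 minus mesenchymal from 38 to between 9 and 73 at day 21, and for levels from 3186 to 6831 and, in mesenchymal minus endothelial cells, from 3999 to 6966 with the highest hashtag. Mice could not be paired between conditions, because the labels carry no replicate numbers. Only the contrasts between cell types were paired, with the mouse as a block. There was 1 library for each condition, and the number of AT2 cells limited the AT2 values after PBS, where 15 had a mouse.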

Other observations

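Epithelial cells outside the AT2 gate, with Epcam but with Sftpc under 5% of UMIs, were looked at after seeing the data and were not tested, since single mice held as few as 6 of them. At day 7 after LPS, Cyr61 was at 126, 324 and 126 CPM in the β1 fl/fl mice and at 1014, 293 and 869.6 in the β1 AT2-KO mice, so 2 of the 3 β1 AT2-KO mice lay above every β1 fl/fl mouse. Ctgf was at 69.5, 28.8 and 29.3 CPM against 217, 48.8 and 339, with the same 2 mice high. Wwtr1 was at 26.1, 93.5 and 31.5 CPM against 48.3, 195 and 95.8, and Thbs1 at 86.9, 122 and 87.9 against 121, 166 and 236. This Ctgf level of 217 to 339 in 2 mice stood above the 0 to 23.6 CPM seen in AT2 cells of any mouse. The mouse at 217 CPM held 6 of these cells and the mouse at 339 CPM held 16, so both levels rest on few cells. The makeup of these cells also differed: club and ciliated markers had a median of 67942 CPM in the β1 fl/fl mice (7482 to 217421) and 2703 in the β1 AT2-KO mice (1473 to 165788), and AT2 markers were at 993 to 6479 against 11931 to 23478. Their part was not tested.

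Among mesenchymal cells, Thbs1 in pericytes had a 95% Poisson interval of 788 to 1159 CPM in the day 7 β1 fl/fl library and of 124 to 306 in the day 7 β1 AT2-KO library, and in Pdgfra fibroblasts it was at 435 and 368. Ctgf in smooth muscle cells was at 1244 CPM in the day 7 β1 fl/fl and 3245 in the day 7 β1 AT2-KO library, against 666 and 666 in Pdgfra fibroblasts. Each value is 1 library, with no replicate check.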
